A study of Mus musculus with 6 samples.

Results

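A group of 10 genes for transcription factors of sensory neurons were read from bulk RNA-seq libraries of mouse dorsal root ganglion (DRG) and neurofibroma tissue, and their levels were compared between 2 genotypes. The 10 were the rows whose symbols are *Pou4f1*, *Pou4f2*, *Pou4f3*, *Isl1*, *Isl2*, *Drgx*, *Tlx3*, *Neurog1*, *Neurod1* and *Shox2*, out of 24062 rows, and *Drgx* stood there under its older symbol *Prrxl1*. 3 libraries came from *Nf1fl/fl;DhhCre* mice, a model of plexiform neurofibroma. The other 3, called double knockout here, were labelled Rx1flfl;Rx3fl/fl;DhhCre, for mice floxed for *Runx1* and *Runx3* as well. The methods of the study add *Nf1fl/fl* to that genotype, so that both groups lack *Nf1* in the same cells. The strain background of every mouse was given as C57BL/6-I129, and no age was given for these mice in the sources used here. *DhhCre* deletes floxed genes in the Schwann cell (SC) lineage, so neurons keep intact copies of *Nf1*, *Runx1* and *Runx3*. The labels name the tissue DRG for the *Nf1fl/fl;DhhCre* mice and tumor for the double knockout, whereas the methods name DRG/tumors for both. The results of the study name tumors for *Nf1fl/fl;DhhCre* and DRG/tumors for the double knockout. Which tissue each group held is thus not settled, and tissue and genotype cannot be told apart.

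Sensory neurons of the DRG arise from the neural crest, where the basic helix-loop-helix factors *Neurog1* and *Neurod1* start neuronal differentiation. The POU factor *Pou4f1* (Brn3a) and the LIM homeodomain factor *Isl1* then end that neurogenic program and turn on sensory genes, and both stay on in most adult sensory neurons. Further factors, among them *Drgx*, *Tlx3*, *Shox2* and the RUNX proteins themselves, help to set the subtypes that sense pain, itch, touch and position.

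*Pou4f1*, *Isl1* and *Pou4f2* rose in the double-knockout libraries, by log2 fold changes of 2.60, 2.40 and 3.04. *Isl2*, with a log2 fold change of 3.61 that was 1.69 without its 1 library at 0 counts, did not pass the threshold, and *Shox2* was at like levels in both genotypes (log2 fold change 0.01). The other 5 genes had counts too low for the filter. No gene of the 10 was called lower. Of all genes tested, 8.03% were called higher and 5.36% lower. Without *Nf1fl/fl;DhhCre* replicate 1 none of the 10 was called higher, and the higher calls over all genes fell from 1257 to 181.

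The genes that passed the filter were taken first. *Pou4f1* lies on chromosome 14 of GRCm38 from 104461676 to 104467999 on the minus strand, and *Isl1* on chromosome 13 from 116298281 to 116309689 on the minus strand. *Pou4f2* lies on chromosome 8 from 78433010 to 78436645 on the minus strand, *Isl2* on chromosome 9 from 55538672 to 55546180 on the plus strand, and *Shox2* on chromosome 3 from 66971727 to 66981771 on the minus strand. The 250 bases before the RefSeq start site of each are printed here, 5′ to 3′ on the strand of the gene, because these are the genes whose levels could be tested, 3 that rose, 1 with a large difference that was not called and 1 without. The sequences are from RefSeq promoters of GRCm38.p6, at chr14:104468000-104468249 for *Pou4f1*, chr13:116309689-116309938 for *Isl1*, chr8:78436648-78436897 for *Pou4f2*, chr9:55540899-55541148 for *Isl2* and chr3:66981772-66982021 for *Shox2*. The *Isl2* window lies within the annotated gene, downstream of its annotated start. Capitals mark each match on either strand to TGTGGT, the core bound by RUNX proteins, to TAATTA, a core of many homeodomain proteins, to the E-box CAGCTG, to the motif CCAAT of general promoters, to TGACG, part of the cyclic AMP response element, or to TATAAA, a form of the TATA box.

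Pou4f1: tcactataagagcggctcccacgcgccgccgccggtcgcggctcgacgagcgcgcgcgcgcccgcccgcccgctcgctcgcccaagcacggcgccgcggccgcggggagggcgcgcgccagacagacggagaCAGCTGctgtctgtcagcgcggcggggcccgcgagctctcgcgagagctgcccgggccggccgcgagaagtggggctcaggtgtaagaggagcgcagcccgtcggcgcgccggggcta
Isl1: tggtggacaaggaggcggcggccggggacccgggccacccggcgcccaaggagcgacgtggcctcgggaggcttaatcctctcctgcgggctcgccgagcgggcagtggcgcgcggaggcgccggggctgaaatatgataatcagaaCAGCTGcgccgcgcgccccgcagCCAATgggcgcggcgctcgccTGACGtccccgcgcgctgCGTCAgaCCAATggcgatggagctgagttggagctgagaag
Pou4f2: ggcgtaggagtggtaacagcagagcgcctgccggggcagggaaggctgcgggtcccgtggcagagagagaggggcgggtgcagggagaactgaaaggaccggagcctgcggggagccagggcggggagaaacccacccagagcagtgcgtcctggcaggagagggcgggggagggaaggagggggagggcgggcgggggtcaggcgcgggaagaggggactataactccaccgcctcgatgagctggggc
Isl2: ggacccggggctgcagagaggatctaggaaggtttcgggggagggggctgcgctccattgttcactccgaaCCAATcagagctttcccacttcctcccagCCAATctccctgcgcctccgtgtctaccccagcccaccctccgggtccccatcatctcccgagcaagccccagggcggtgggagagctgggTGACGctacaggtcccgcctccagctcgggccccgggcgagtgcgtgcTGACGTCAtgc
Shox2: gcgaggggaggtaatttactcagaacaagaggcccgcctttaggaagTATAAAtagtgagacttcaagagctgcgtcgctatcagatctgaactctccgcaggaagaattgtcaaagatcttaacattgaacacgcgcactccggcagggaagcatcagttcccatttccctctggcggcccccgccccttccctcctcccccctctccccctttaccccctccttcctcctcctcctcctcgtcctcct

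These promoters were rich in G and C. The GC content was 78.0% for *Pou4f1*, 71.2% for *Isl1*, 70.8% for *Pou4f2*, 66.8% for *Isl2* and 55.6% for *Shox2*, against a median of 52.4% and an upper quartile of 61.2% over 32851 RefSeq promoters of the same length. *Pou4f1* held 47 CpG sites and *Isl1* held 33, against a median of 6. 9 of the 10 genes had a promoter entry, of which 7 lay above that upper quartile of GC content and 9 above the median number of CpG sites. CAGCTG, present in 13% of all promoters, was found in *Isl1* and *Pou4f1*. CCAAT, in 33.8%, was found in *Isl1*, *Isl2*, *Tlx3* and *Neurog1*. TGACG, in 17.8%, was found in *Isl1* and *Isl2*, and 2 of the 3 matches in *Isl2* overlap in its TGACGTCA. TGTGGT, in 14.0%, was found only in *Drgx*, TAATTA, in 4.84%, only in *Neurog1*, and TATAAA, in 12.4%, only in *Shox2*. The *Drgx* window, not printed here, lies within the annotated gene, downstream of its annotated start, and holds 116 exon bases. A match describes the letters of the window and is no evidence of binding.

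The counts of the libraries summed to between 12439296 and 16682194, and 3 counts corresponded to 0.179 to 0.247 CPM, the counts scaled to a common library total after TMM normalization, which is the scale of levels used here. The targeted genes were examined as a check of the labels. *Runx1* was at 131, 141 and 172 CPM in *Nf1fl/fl;DhhCre* replicates 1 to 3 and at 84.0, 78.9 and 185 CPM in double-knockout replicates 1 to 3, so that the library labelled double-knockout replicate 3 was not reduced (log2 fold change −0.44, limma-voom adjusted p = 0.370). Double knockout is therefore used as the name on the labels only. Without that library *Isl1*, *Pou4f1* and *Pou4f2* were still called, with log2 fold changes of 2.12, 2.20 and 2.66. Without double-knockout replicate 2, which the labels leave as the other candidate for a separate sequencing run, these were 2.46, 2.73 and 3.13, and *Pou4f2* was not called. *Runx3* was at 15.1 to 29.9 CPM against 10.3 to 13.6 CPM (log2 fold change −0.79, limma-voom adjusted p = 0.104), and *Nf1* differed by −0.06. Since bulk tissue holds many cells in which *DhhCre* is not active, these levels do not measure the deletion itself. Skeletal muscle markers were at 2214 CPM in sum in *Nf1fl/fl;DhhCre* replicate 2 and at 11390 CPM in double-knockout replicate 2, against 5.84 to 64.4 CPM in the other 4 libraries, so the factors were also fitted without this pair of libraries, which left *Isl1* (log2 fold change 2.73) and *Pou4f1* (3.30) called and *Pou4f2* (3.45) not called.

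The POU factors were described next. *Pou4f1*, required for the survival and axon growth of sensory neurons, was at 8.74, 24.1 and 7.44 CPM in the *Nf1fl/fl;DhhCre* libraries, compared with 49.2, 60.2 and 121 CPM in the double-knockout libraries. Every double-knockout library lay above every *Nf1fl/fl;DhhCre* library, and replicate 3 of the double knockout stood highest. The means were 13.4 ± 9.28 and 76.8 ± 38.6 CPM (SD, n = 3 mice each), and the log2 fold change was 2.60 (SE 0.52, limma-voom adjusted p = 0.0188). Leaving out 1 library at a time kept it between 2.20 and 3.20, and the call was lost without *Nf1fl/fl;DhhCre* replicate 1 (limma-voom adjusted p = 0.0720) or replicate 3 (0.0608), within a range of 1.31e-05 to 0.0720 over 14 other settings. In tissue that mixes cell types, more cells of a type and more RNA per cell cannot be told apart, for this gene and all those that follow.

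*Pou4f2* (Brn3b), known best from retinal ganglion cells and present in part of the DRG neurons, was at 2.15, 2.03 and 0.577 CPM in the *Nf1fl/fl;DhhCre* libraries, compared with 7.81, 9.87 and 18.02 CPM in the double-knockout libraries. The groups did not overlap, and *Nf1fl/fl;DhhCre* replicate 3 was lowest, with 9 counts. That is under the minimum count of the filter (10), which *Pou4f2* thus passed only with the help of double-knockout libraries, where it was high. The means were 1.58 ± 0.874 and 11.9 ± 5.40 CPM (SD, n = 3 mice each), with a log2 fold change of 3.04 (SE 0.65, limma-voom adjusted p = 0.0220). Of the 6 fits that left out 1 library, 3 called *Pou4f2*. The call was lost without *Nf1fl/fl;DhhCre* replicate 1 (limma-voom adjusted p = 0.0703), *Nf1fl/fl;DhhCre* replicate 3 (0.0547) or double-knockout replicate 2 (0.0522), and also without both muscle-rich libraries (0.0528), within a range of 2.68e-06 to 0.0703 over 14 other settings.

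*Pou4f3* (Brn3c), a factor of hair cells and of some sensory neurons, lies on chromosome 18 from 42394539 to 42397249 on the plus strand. It had 0, 2 and 0 counts in the *Nf1fl/fl;DhhCre* libraries and 2, 9 and 6 counts in the double-knockout libraries, and did not pass the filter. On the CPM scale the groups did not overlap. Scaled by library totals and pooled over each genotype, the counts had a ratio of 9.98 (exact 95% interval 2.37 to 89.1). This interval, like the others below, covers counting error only, as if reads were independent, and leaves out the spread between mice. Per kilobase of exon, the order of mean levels among the POU factors was *Pou4f1*, *Pou4f2* and *Pou4f3* in both genotypes.

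The LIM homeodomain factors followed. *Isl1*, which acts with *Pou4f1* in sensory neurons and is also a factor of motor and sympathetic neurons, was at 3.19, 4.94 and 2.76 CPM in the *Nf1fl/fl;DhhCre* libraries, compared with 13.9, 17.4 and 26.7 CPM in the double-knockout libraries. The groups did not overlap, and replicate 3 of the double knockout was again highest. The means were 3.63 ± 1.16 and 19.3 ± 6.61 CPM (SD, n = 3 mice each), and the log2 fold change was 2.40 (SE 0.39, limma-voom adjusted p = 0.0126). It lay between 2.12 and 2.70 when 1 library was left out and was called in 5 of these 6 fits. The exception was the fit without *Nf1fl/fl;DhhCre* replicate 1 (limma-voom adjusted p = 0.0548), within a range of 8.43e-09 to 0.0548 over 14 other settings.

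*Isl2*, the close relative of *Isl1*, was at 1.25, 2.62 and 0 CPM in the *Nf1fl/fl;DhhCre* libraries, from 18, 44 and 0 counts. In the double-knockout libraries it was at 3.27, 6.09 and 9.37 CPM, from 41, 74 and 142 counts. The groups did not overlap, but the 0 in *Nf1fl/fl;DhhCre* replicate 3 set it apart from its own group. *Isl2* therefore passed the filter only with the help of double-knockout libraries, where it was high. The log2 fold change of 3.61 (SE 1.36) did not pass the threshold (limma-voom adjusted p = 0.104, and 0.0799 to 0.190 over 14 other settings). Without the library at 0 the log2 fold change was 1.69 (limma-voom adjusted p = 0.164), and without any other library it was 3.21 to 4.96. It was 2.26 with edgeR and 2.27 with DESeq2 on all 6 libraries. The pooled counts, which give that library no more weight than its depth, had a ratio of 4.87 (exact 95% interval 3.68 to 6.53).

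**Figure D1:**
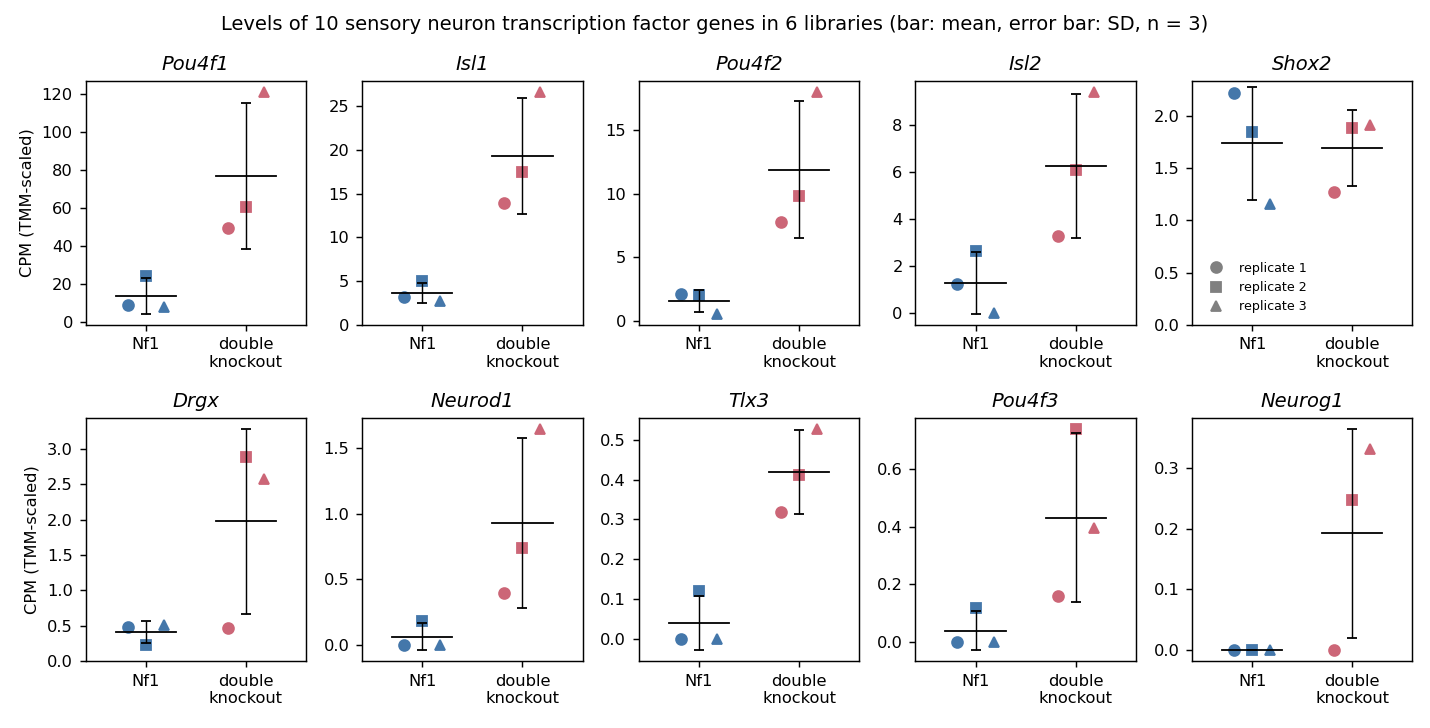
Level of each of the 10 genes in the 6 libraries, in CPM after TMM normalization on linear axes that differ between panels, with 1 point per library, the mean as a bar and the SD as an error bar (n = 3). In 7 of the 10 panels all 3 double-knockout points lie above all 3 *Nf1fl/fl;DhhCre* points, and the exceptions are *Drgx*, *Neurog1* and *Shox2*. The 7 include *Pou4f3*, *Tlx3* and *Neurod1*, which had too few counts for the filter. Among genes that passed it, this held for 4 of these 5 and for 21.8% of all.

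*Shox2*, a homeodomain factor of neurons that sense touch and also of cells outside the nervous system, was at 2.22, 1.85 and 1.15 CPM in the *Nf1fl/fl;DhhCre* libraries, compared with 1.28, 1.89 and 1.91 CPM in the double-knockout libraries. The groups overlapped. The log2 fold change was 0.01 (SE 0.44, limma-voom adjusted p = 0.992), with values from −0.22 to 0.22 when 1 library was left out. The ratio of pooled counts was 0.986 (exact 95% interval 0.703 to 1.38). Its exons share 153 bases with *Rsrc1* on the other strand, and whether the counting used strand is not stated. *Rsrc1* was at 19.7 to 24.5 CPM against 24.3 to 25.6 CPM (log2 fold change 0.14, limma-voom adjusted p = 0.574), a higher level than that of *Shox2*, and its part in the *Shox2* counts was not tested.

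**Figure D2:**
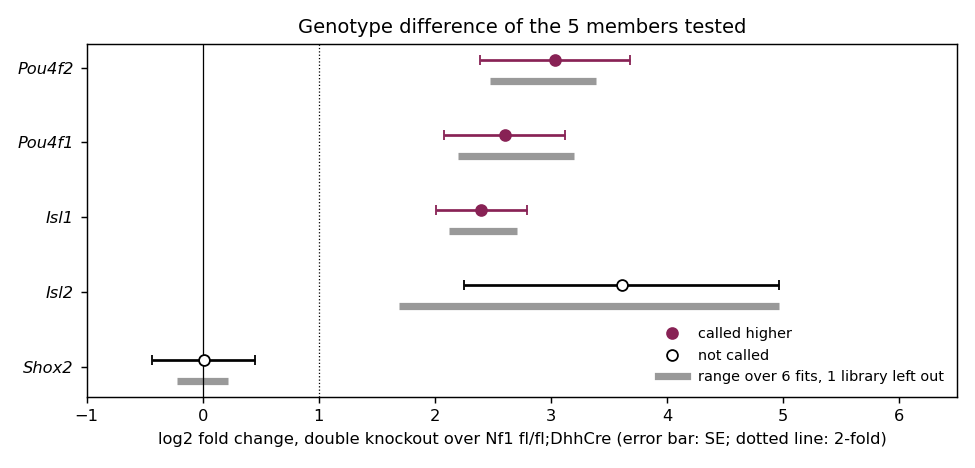
Log2 fold change of the 5 genes that passed the filter, double knockout over *Nf1fl/fl;DhhCre*, with the SE of limma-voom as an error bar and the range over 6 fits, each without 1 of the libraries, as a grey bar. *Pou4f2*, *Pou4f1* and *Isl1* lie at 2.40 to 3.04 and were called, *Isl2* lies at 3.61 with the widest bars and was not called, and *Shox2* lies at 0.01.

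The other homeodomain factors did not pass the filter. *Drgx* (DRG11), needed for the wiring of pain-sensing neurons to the spinal cord, lies on chromosome 14 from 32599407 to 32649246 on the plus strand. It had 7, 4 and 8 counts in the *Nf1fl/fl;DhhCre* libraries and 6, 35 and 39 counts in the double-knockout libraries. Replicate 1 of the double knockout was thus at the *Nf1fl/fl;DhhCre* level (0.478 CPM), while replicates 2 and 3 were at 2.88 and 2.58 CPM. The ratio of pooled counts was 4.94 (exact 95% interval 2.97 to 8.64). *Tlx3*, a selector of excitatory sensory and dorsal horn neurons, lies on chromosome 11 from 33200752 to 33203589 on the minus strand. It had 0, 2 and 0 counts against 4, 5 and 8 counts, a ratio of 9.98 (exact 95% interval 2.37 to 89.1), and the groups did not overlap.

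The basic helix-loop-helix factors, which act early in neurogenesis, did not pass the filter either. *Neurod1*, on chromosome 2 from 79452521 to 79456751 on the minus strand, had 0, 3 and 0 counts in the *Nf1fl/fl;DhhCre* libraries and 5, 9 and 25 counts in the double-knockout libraries. The groups did not overlap, and the ratio of pooled counts was 15.3 (exact 95% interval 4.85 to 77.2). Its exons share 201 bases with *Cerkl* on the same strand, which was at 2.15 to 3.21 CPM against 1.06 to 3.62 CPM (log2 fold change −0.56, limma-voom adjusted p = 0.463), so that reads of the shared bases cannot be assigned for certain. *Neurog1*, on chromosome 13 from 56250478 to 56252163 on the minus strand, had 0 counts in every *Nf1fl/fl;DhhCre* library and 0, 3 and 5 counts in the double-knockout libraries. The exact 95% interval of its ratio of pooled counts had a lower limit of 2.004 and no upper limit. Its groups overlapped, since double-knockout replicate 1 was at 0.

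Over all 10 genes, 3 were called higher (*Isl1*, *Pou4f1* and *Pou4f2*), where a call needs a limma-voom adjusted p below 0.05 and a change of more than 2-fold. All 3 were among the 5 that passed the filter. Of these 5, *Pou4f2* and *Isl2* passed only with the help of double-knockout libraries, where they were high. The count was 0 without *Nf1fl/fl;DhhCre* replicate 1 and 1 without *Nf1fl/fl;DhhCre* replicate 3. The higher calls over all genes also fell there, from 1257 to 181 and to 535. Of the 15652 genes tested, 8.03% were called higher and 5.36% lower. None of the 10 was called lower with limma-voom, and the count was also 0 with edgeR, with DESeq2 and at an unadjusted p under 0.05. All 3 double-knockout libraries lay above all 3 *Nf1fl/fl;DhhCre* libraries for 4 of the 5 tested, against 21.8% of all genes tested. With the genes under the filter this held for 7 of the 10. These include genes of very low counts, for which that share does not serve. Double-knockout replicate 3 was the highest library for 7 of the 10 genes, and *Nf1fl/fl;DhhCre* replicate 2 was the highest of its group for 6.

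Levels were then put in order per kilobase of exon, so that genes of different length can be compared. In the *Nf1fl/fl;DhhCre* libraries *Pou4f1* led with a mean of 2.88 CPM per kilobase, followed by *Isl1* (0.917), *Isl2* (0.588), *Shox2* (0.526), *Pou4f2* (0.494) and *Drgx* (0.0989), and then by *Tlx3* (0.0259), *Neurod1* (0.0218), *Pou4f3* (0.0166) and *Neurog1* (0). Only *Pou4f1* and *Isl1*, and *Pou4f2* and *Drgx*, did not overlap as neighbours. In the double-knockout libraries the order was *Pou4f1* (16.4), *Isl1* (4.88), *Pou4f2* (3.71), *Isl2* (2.85), *Shox2* (0.512), *Drgx* (0.474), *Neurod1* (0.341), *Tlx3* (0.274), *Pou4f3* (0.180) and *Neurog1* (0.114). Here only *Pou4f1* and *Isl1*, and *Isl2* and *Shox2*, were neighbours whose libraries did not overlap. *Shox2* was thus among *Isl2* and *Pou4f2* in the first group and below both in every library of the second.

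Other genes of neurons were higher in the same libraries. Of 20 general neuron markers, which all passed the filter, 18 rose and 0 fell with limma-voom (median log2 fold change 2.29, against 0.02 for all genes tested). EdgeR and DESeq2 each called 19 higher and 0 lower, and all 20 had a positive log2 fold change and an unadjusted p under 0.05. Their summed level was 1525 to 2826 CPM in the *Nf1fl/fl;DhhCre* libraries and 6784 to 14980 CPM in the double-knockout libraries. *Snap25*, of the synaptic vesicle fusion machinery, had a log2 fold change of 2.53, *Dcx*, a microtubule protein of young neurons, of 3.19, and the neurofilament genes *Nefl* and *Nefm* of 2.40 and 2.38. The mean log2 CPM of the markers was 4.57, 5.51 and 4.51 in *Nf1fl/fl;DhhCre* replicates 1 to 3 and 6.55, 6.83 and 7.62 in double-knockout replicates 1 to 3. Replicate 3 of the double knockout and replicate 2 of *Nf1fl/fl;DhhCre*, the highest libraries for most of the 10 factors, were thus the highest of their groups for these markers too.

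The tested factors were therefore also measured relative to these markers, as the log2 CPM of the gene minus the mean log2 CPM of the 20 markers in the same library. For *Isl1* this difference was −2.88, −3.20 and −3.03 in the *Nf1fl/fl;DhhCre* libraries and −2.75, −2.70 and −2.89 in the double-knockout libraries. The groups were 0.26 apart (exact two-sided permutation p = 0.2), beside a change of 2.39 in the level of *Isl1* itself. *Pou4f1* was at −1.32 ± 0.36 and −0.85 ± 0.13 (SD, n = 3), a difference of 0.47 (exact permutation p = 0.3). *Pou4f2* was at −4.38 ± 0.89 and −3.52 ± 0.06 (SD, n = 3), a difference of 0.87 (exact permutation p = 0.4), and *Isl2* differed by 1.45 (exact permutation p = 1.0). The *Isl2* value depends on *Nf1fl/fl;DhhCre* replicate 3, the library at 0, without which the difference was −0.32, and it was 0.78 with a prior count of 2 in place of 0.5. The smallest p that 3 libraries against 3 can give is 0.1, so none of these tests could pass the threshold, and a difference relative to the markers is not excluded by them.

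*Shox2* was lower in the double knockout on this relative scale. It stood at −3.40, −4.60 and −4.27 relative to the markers in the *Nf1fl/fl;DhhCre* libraries and at −6.16, −5.88 and −6.66 in the double-knockout libraries. The groups did not overlap, and the difference was −2.14 (exact permutation p = 0.1, the smallest that this design can give). Since the level of *Shox2* itself differed by −0.01, this difference is that of the markers, which were 2.14 higher.

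**Figure D3:**
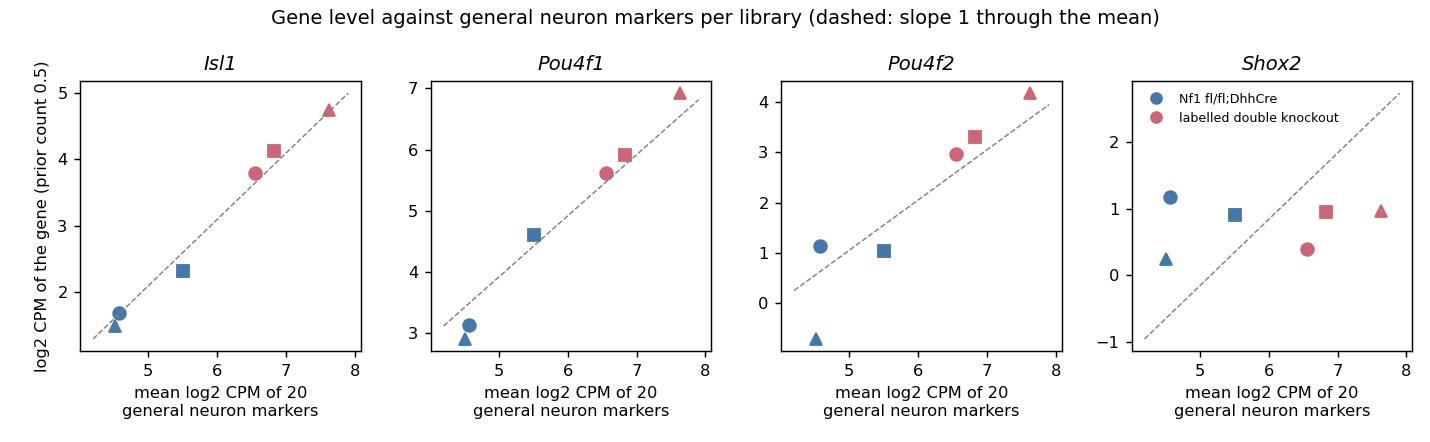
Log2 CPM of *Isl1*, *Pou4f1*, *Pou4f2* and *Shox2* against the mean log2 CPM of 20 general neuron markers in each library, with circles, squares and triangles for replicates 1, 2 and 3 and a dashed line of slope 1 through the mean. *Isl1* follows the line closely, *Pou4f1* and *Pou4f2* less so, and *Shox2* stays level while the marker mean goes from 4.51 to 7.62.

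Other transcription factors of neurogenesis were tested as a list of 17. Of the 11 that passed the filter, 7 rose and 1 fell (median log2 fold change 2.17). Together with the subtype factors and cofactors described next, 15 genes rose and 3 fell, and these counts were 2 and 0 without *Nf1fl/fl;DhhCre* replicate 1 and 5 and 3 without *Nf1fl/fl;DhhCre* replicate 3. *Ebf1* rose from 70.8 ± 14.0 to 192 ± 13.6 CPM and *Ebf3* from 29.5 ± 6.17 to 136 ± 40.9 CPM (SD, n = 3 each), by log2 fold changes of 1.46 and 2.17, both factors that act downstream of the proneural genes. *Myt1l* and *Myt1*, zinc finger factors that hold the neuronal identity, rose by log2 fold changes of 2.45 and 3.09. *Ebf2*, of the same family as *Ebf1* and also a factor of mesenchymal and fat cell precursors, fell from 246 ± 58.3 to 105 ± 10.4 CPM (SD, n = 3 each), a log2 fold change of −1.21. Of the relatives of *Neurog1* and *Neurod1*, *Neurog2*, *Neurod2* and *Neurod4* had 0 counts in all 6 libraries, and *Neurod6* had at most 1 count in a library.

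Factors of sensory subtypes were tested as a list of 29. Of the 24 that passed the filter, 6 rose and 2 fell, and the median log2 fold change was 0.66. *Casz1* rose from 19.3 ± 6.10 to 80.9 ± 25.5 CPM and *Onecut2* from 20.6 ± 7.001 to 92.8 ± 45.0 CPM (SD, n = 3 each). *Tlx2*, a relative of *Tlx3*, was at 0.257 to 0.555 CPM and at 2.87 to 4.03 CPM (log2 fold change 3.05), and *Esrrg* rose by a log2 fold change of 1.58. *Tlx2* lay under the minimum count in every *Nf1fl/fl;DhhCre* library and passed the filter only through double-knockout libraries. Its test was thus selected for a difference. *Etv4* fell by 1.82 on the log2 scale. *Tlx1*, another relative of *Tlx3*, had 0 counts in every library.

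The cofactors through which LIM homeodomain proteins such as *Isl1* act were tested as a list of 10. All 10 passed the filter, 2 rose and 0 fell with limma-voom (lower with edgeR 0, with DESeq2 1), and 7 had an unadjusted p under 0.05 whatever the size and direction of the change, with a median log2 fold change of 0.19. *Ldb2* rose from 50.4 ± 15.9 to 135 ± 52.7 CPM (SD, n = 3 each), whereas its paralog *Ldb1*, named here after its values were seen because it is the main partner of *Isl1*, differed by 0.07 (limma-voom adjusted p = 0.866). The call of *Ldb2* was lost without *Nf1fl/fl;DhhCre* replicate 1, *Nf1fl/fl;DhhCre* replicate 3 or double-knockout replicate 2. *Lmo3* was called from levels at or under 3 counts in the *Nf1fl/fl;DhhCre* libraries (0.139, 0 and 0.192 CPM) and 1.25 to 1.91 CPM in the double-knockout libraries, and lost its call in all 6 fits that left out 1 library. It passed the filter only through double-knockout libraries, so its test was selected for a difference.

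Genes that carry out the work of sensory neurons were read as a list of 22 effectors. Of the 21 tested, 14 rose and 0 fell with limma-voom (edgeR 13 and 0, DESeq2 15 and 0, and 18 at an unadjusted p under 0.05 in either direction), with a median log2 fold change of 2.53. *Mrgprd*, a receptor of non-peptidergic nociceptors, rose from 7.55 ± 2.55 to 74.5 ± 18.1 CPM and *Scn11a*, a sodium channel of nociceptors, from 28.4 ± 20.98 to 216 ± 93.0 CPM (SD, n = 3 each). *Sst*, the peptide of a set of itch neurons, rose by a log2 fold change of 3.54. *Ntrk3*, the receptor of proprioceptive and touch neurons, rose by 1.49. These counts stand beside those of the factors as descriptions.

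**Figure D4:**
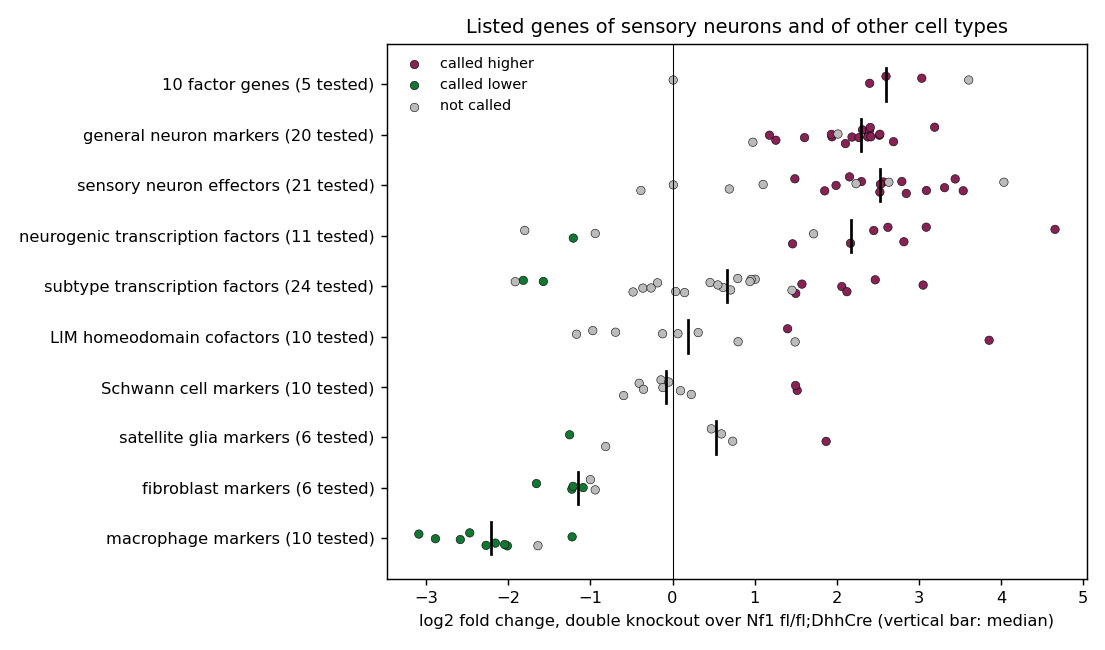
Log2 fold change of every tested gene of 10 lists, double knockout over *Nf1fl/fl;DhhCre*, with 1 point per gene, the median as a vertical bar and calls in color. Medians lie at 2.17 to 2.60 for the 5 tested of the 10 factors, the neuron markers, the effectors and the neurogenic factors, at 0.66 for the subtype factors, at −0.08 for SC markers and at −2.21 for macrophage markers.

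Markers of other neurons that use some of the same factors were examined next, with those of central glia. Of 10 markers of dorsal horn interneurons, *Lbx1*, *Lhx1*, *Slc32a1* and *Slc6a5* had 0 counts in all libraries, and the list summed to 6.80 to 8.94 CPM in the *Nf1fl/fl;DhhCre* libraries and to 7.81 to 9.84 CPM in the double-knockout libraries. Of 6 motor neuron markers, *Mnx1*, *Lhx3* and *Lhx4* were at 0 and the sums were 0.179 to 1.39 CPM and 0.658 to 3.37 CPM. The 8 sympathetic neuron markers, which matter for *Isl1*, summed to 201 CPM in *Nf1fl/fl;DhhCre* replicate 3 and to 11.2 to 28.0 CPM in the other 5 libraries. The 6 central glia markers summed to 8.15 to 22.4 CPM and to 21.3 to 55.8 CPM. Of these 4 lists only 2, 1, 2 and 2 genes passed the filter, and limma-voom called 0 of them. The other genes were not tested, so the calls say nothing about them. At an unadjusted p under 0.05 there were 0, 0, 1 and 1, edgeR called 0, 0, 0 and 1, and DESeq2 called 0, 0, 1 and 1.

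Macrophage and fibroblast markers fell in the double knockout. Of 10 macrophage markers 9 fell and 0 rose, with sums of 1121 to 2168 CPM and 201 to 457 CPM, and of 6 fibroblast markers 4 fell and 0 rose, with sums of 9176 to 9843 CPM and 3377 to 5600 CPM. *Itgam*, of macrophages, fell by 2.89 on the log2 scale and *Lum*, of fibroblasts, fell by 1.66. Of the fibroblast calls, *Dcn* was kept in all 6 fits that left out 1 library, *Lum* in 5, *Col1a2* in 3 and *Pdgfra* in 1. Without *Nf1fl/fl;DhhCre* replicate 1, *Lum*, *Col1a2* and *Pdgfra* were not called, nor were the macrophage markers *Mrc1*, *Adgre1* and *Csf1r*. Of 10 SC markers 2 rose, among them *S100b* (log2 fold change 1.52), and 0 fell, with sums of 2019 to 2475 CPM and 2284 to 2988 CPM, and of 6 satellite glia markers *Fabp7* rose (1.87) and *Kcnj10* fell by 1.25. Of 8 skeletal muscle markers limma-voom called 0, and the count was 0 at an unadjusted p under 0.05, with edgeR and with DESeq2. EdgeR and DESeq2 likewise called 0 macrophage and 0 fibroblast markers higher and 0 SC markers lower, and the genes at an unadjusted p under 0.05 in either direction numbered 9, 6 and 3. The part of these shifts in the levels of the 10 factors was not tested.

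The genes whose profile over the 6 libraries was most like that of *Pou4f1*, the factor with the highest level, were found among the 10220 genes whose average log2 CPM reached 3. Likeness was the Euclidean distance between log2 CPM profiles, each centred on its own mean. *Ralyl* was nearest (0.131), at 9.43, 26.8 and 8.60 CPM in the *Nf1fl/fl;DhhCre* libraries, compared with 51.0, 66.1 and 126 CPM in the double-knockout libraries. *Car10* (0.192), *Trnp1* (0.223), *P2rx3* (0.230) and *Slc17a6* (0.245) followed. With 6 libraries that share the contrast of the genotypes, this is a description of the profiles.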

How the data were processed

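RNA was measured by bulk RNA-seq in 6 libraries, 1 per mouse, 3 per genotype. Per the methods of the study, total RNA of DRG/tumors was amplified with the Ovation RNA-Seq System (NuGEN), libraries were made with Nextera XT, and TopHat placed the paired-end reads on mm10. The authors deposited the raw count of reads per gene from featureCounts, named by symbol and not normalized. The submitters' processing notes also name CASAVA 1.4. The annotation, the strandedness and the handling of reads with several alignments are not given in the sources used here. Intervals and floors cover counting error only, as if reads were independent. Amplified reads are not independent molecules, so the intervals are too narrow even for that error, and they leave out the spread between mice.

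Replicates were numbered in accession order, which pairs nothing. For some libraries the title and the data name different mice of the same genotype, and 1 double-knockout library came from another sequencing run. The labels disagree on whether it was replicate 2 or 3, so the factors are given without each of these in turn. No library pair of a genotype agreed within sampling noise. P-values measure the spread between these libraries.

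Genes were kept with filterByExpr (edgeR 4.0.16, minimum count 10, minimum total 15), which left 15652. After TMM normalization, limma-voom (limma 3.58.1, R 4.3.3) was fitted with a term for genotype alone, and Benjamini-Hochberg adjustment ran over all 15652 genes. CPM came from the counts and TMM factors. Marker-relative levels used a prior count of 0.5 and an exact permutation test (scipy 1.17.1). Ratios of pooled counts have exact 95% intervals. Positions and exon lengths are from GENCODE M21 and promoters from RefSeq.

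The factors, lists and tests were chosen with earlier results of these data known. Of each list, up to 4 genes called in each direction with the smallest adjusted p were named, with other genes by count or range, and some genes that meet this rule are left out of the text. The other settings were DESeq2 1.42.0, the quasi-likelihood test of edgeR, DESeq2 size factors in limma-voom, no TMM, a minimum of 1 CPM in 3 libraries, no filter, sample quality weights, unadjusted p, leaving out each library and, chosen after seeing the data, leaving out both muscle-rich libraries. ChIP-seq and ATAC-seq data were not analysed here.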

Additional observations from a re-analysis of the deposited data

How the results depend on the processing

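Of the 10 factors, limma-voom called 3 higher, and 5 with no filter on low counts, where *Tlx3* (adjusted p = 0.0448) and *Neurod1* (adjusted p = 0.0376) were added. Leaving out 1 library gave 0 to 4, with 0 without *Nf1fl/fl;DhhCre* replicate 1 and 1 without replicate 3, where calls over all genes also fell from 1257 higher and 839 lower to 181 and 181, and to 535 and 498. The cause was not tested. Without both muscle-rich libraries 2 were called. The count of lower calls was 0 in all 15 alternatives. Of the other listed transcription factors and cofactors, 15 were called higher (2 to 16 when 1 library was left out, with 2 without *Nf1fl/fl;DhhCre* replicate 1 and 5 without replicate 3) and 3 lower (5 with DESeq2, with sample quality weights and at an unadjusted p, 1 without both muscle-rich libraries, and 0 to 5 when 1 library was left out, with 0 without *Nf1fl/fl;DhhCre* replicate 1 and 5 without replicate 2). The cause was not tested.

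The log2 fold change of *Shox2*, 0.01, was −0.036 with edgeR, −0.044 with DESeq2, −0.0038 with DESeq2 size factors, −0.064 with library size only, −0.0024 with no filter, −0.17 with sample quality weights and −0.22 to 0.22 when 1 library was left out, with no call. *Isl1*, *Isl2*, *Pou4f1* and *Pou4f2* stayed positive in all alternatives, and *Isl2* was called only at an unadjusted p (0.0311). Library size only moved the median log2 fold change of all genes from 0.02 to −0.06. The difference of *Isl2* relative to the neuron markers, 1.45, was −0.32 without *Nf1fl/fl;DhhCre* replicate 3, and up to 2.37 without another library. It was 0.78 with a prior count of 2. Those of *Isl1*, *Pou4f1*, *Pou4f2* and *Shox2* kept their direction in the 9 alternatives run for each. Of the other named genes, *Ebf1*, *Ebf3*, *Mrgprd*, *Snap25*, *S100b* and *Itgam* were called in all 6 fits that left out 1 library. *Tlx2*, *Esrrg* and *Onecut2* were not called without *Nf1fl/fl;DhhCre* replicate 1 or replicate 3, and *Myt1l*, *Myt1*, *Ebf2*, *Casz1*, *Etv4*, *Sst*, *Scn11a*, *Ntrk3*, *Dcx*, *Nefl*, *Nefm*, *Fabp7*, *Kcnj10* and *Lum* were not called without *Nf1fl/fl;DhhCre* replicate 1. No paired analysis was possible because the labels give no replicate numbers. The 5 genes under the filter had low counts in most libraries, where 3 counts are 0.179 to 0.247 CPM. Whether depth limits them was not tested.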

Other observations

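The make-up of the 10 factors was also read within each library, as the share of their summed level per kilobase, which rests on few counts in the *Nf1fl/fl;DhhCre* libraries. *Pou4f1* made up 39.8%, 57.1% and 54.2% of the sum in *Nf1fl/fl;DhhCre* replicates 1 to 3 and 55.8%, 50.7% and 57.5% in the double-knockout libraries. *Isl1* made up 17.1%, 13.8% and 23.7% and then 18.5%, 17.3% and 14.96%, so that the ranges of both genes overlapped between the genotypes. *Shox2* made up 14.2%, 6.17% and 11.8% and then 2.04%, 2.25% and 1.28%. The level of *Shox2* itself was alike in both genotypes (log2 fold change 0.01), so its lower share restates the higher levels of the other factors. The summed level of all 10 genes was 12.4 to 36.2 CPM in the *Nf1fl/fl;DhhCre* libraries and 76.8 to 182 CPM in the double-knockout libraries.

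*Drgx* and *Neurod1* passed the filter in some fits that left out 1 library. *Drgx* was tested in 4 of these and called in 1, the fit without double-knockout replicate 1, its lowest double-knockout library (6 counts). *Neurod1* was tested in 2 and called in 0 by limma-voom. In the *Nf1fl/fl;DhhCre* libraries *Drgx* had 7, 4 and 8 counts and *Neurod1* had 0, 3 and 0, all too low for the filter. Both genes therefore passed only through double-knockout libraries in which they were high. These tests were thus selected for a difference, and no conclusion is drawn from them.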
